A study of Mus musculus with 6 samples.

Results

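The genes examined were the collagen chain genes of the mouse lung, taken as every row of the count table whose symbol has the form Col, a type number, a and a chain number. This rule gave 44 of the 49315 genes in the table, and it used names only, not measured values. RNA was sequenced from lung cells of male C57BL/6J mice (C57BL/6 in the labels) that received either sterile saline (sham-treated) or bleomycin sulfate (BLM-treated) by the oropharyngeal route, with no genetic change in either group. The lungs were taken 21 days later and dissociated to single cells with collagenase. The suspension was sequenced unsorted, or after sorting on surface Lamp1, a lysosomal membrane protein, into Lamp1-depleted and Lamp1-enriched cells. Each of the 6 conditions was 1 library made from pooled lungs (2 to 3 per tube), so that variation between mice cannot be measured. The labels give no age for the animals.

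Collagens are trimers of alpha chains, each chain encoded by its own gene, wound into a triple helix and secreted. The main fibrillar collagens (types I, II, III, V and XI) are the fibrillar class used here. They form the banded fibrils that bear tension and accumulate in scar tissue, with types V and XI acting as minor chains inside the fibril. Type IV collagen makes the network of basement membranes, where types XV and XVIII sit at the interface with the stroma. Type VI forms beaded microfilaments around cells, and most of the remaining types are associated with fibrils, anchor epithelia, span the membrane or build short networks. Bleomycin injury of the mouse lung is a common model of fibrosis, in which fibroblasts lay down fibrillar collagen.

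The libraries held from 30236120 to 52918696 counted reads. Collagen chains took between 0.0270% of the reads in sham Lamp1-depleted cells and 0.461% in BLM Lamp1-enriched cells, which was 10700 and 243849 reads. The noncoding gene Gm26917 took 38.4% of BLM Lamp1-depleted reads and at most 7.10% elsewhere. That limit holds for all values that rest on this library, also where it is not repeated. Scaling by total counts moved the all-gene median log2 ratio of BLM over sham Lamp1-depleted cells by -0.72. Counting intervals do not cover such a shift. Lamp1 itself was higher in Lamp1-enriched than in Lamp1-depleted cells in both treatments, with log2 ratios of 1.75 and 1.77. At least 10 reads in a library were reached by 42 of the 44 chains, and 34 had at least 50 reads in a library. The other 10 are named near the end. Levels below are CPM (library-size scaled read counts) corrected by TMM (trimmed mean of M values) factors, and a level compared between genes is further divided by exon length in kilobases.

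Basement membrane chains made up the largest share of collagen reads in every library, and Col4a1 and Col4a2, the ubiquitous chains of type IV, were the most abundant chains per length in all 6. Their levels per kilobase were 44.9 and 29.3 CPM in sham unsorted cells and 265 and 160 in BLM Lamp1-enriched cells. Col1a1, the major chain of type I collagen, came next per length in every library but the sham Lamp1-depleted one, where Col10a1 stood above it, at 4.16 against 2.64. The counts of Col10a1 carry a limit from a gene on the other strand, given below. Of the 34 chains with at least 50 reads, 15 had their highest level in BLM Lamp1-enriched cells, 8 in BLM unsorted cells and 6 in sham unsorted cells. Lengths are those of all annotated exons of a gene together, which can exceed the length of the transcripts made, so the order of chains of similar level is uncertain.

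**Figure D1:**
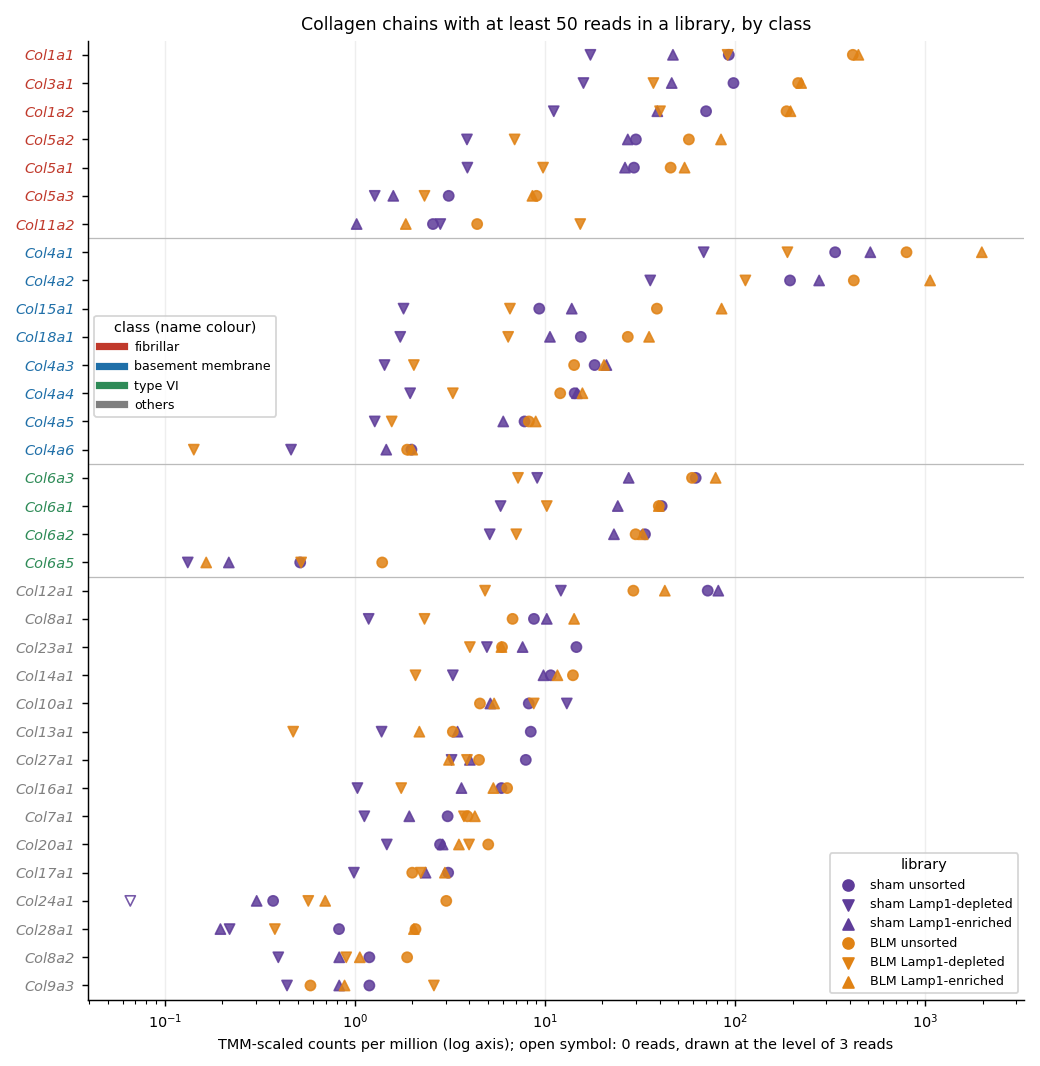
Level of the 34 collagen chains with at least 50 reads in a library, as TMM-scaled CPM on a log axis, 1 symbol for each of the 6 libraries, sorted by class and by highest count. Lamp1-depleted libraries (downward triangles) lie at the left for most chains, and the exceptions Col9a3, Col10a1 and Col11a2 are highest in a Lamp1-depleted library.

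The make-up of the collagen reads differed between the treatments and between the fractions. Fibrillar chains took 27.0%, 24.0% and 15.0% of collagen reads in sham cells that were unsorted, depleted and enriched for Lamp1, and 37.7%, 34.3% and 22.6% in the BLM libraries in the same order. Thus the share was higher in the BLM library of each fraction, and lowest in Lamp1-enriched cells of either treatment. Basement membrane chains took 49.2%, 47.9% and 68.2% in sham and 53.3%, 54.0% and 71.6% in BLM libraries. Type VI collagen held 11.4%, 8.81% and 6.02% in sham and 5.30%, 4.40% and 3.40% in BLM libraries. All other types together held 12.4%, 19.3% and 10.8% in sham and 3.79%, 7.34% and 2.38% in BLM libraries. The exact (Clopper-Pearson) 95% intervals of these shares do not overlap between treatments for any class in any fraction, but they cover counting error only. Shares of reads do not depend on how libraries are scaled to each other.

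**Figure D2:**
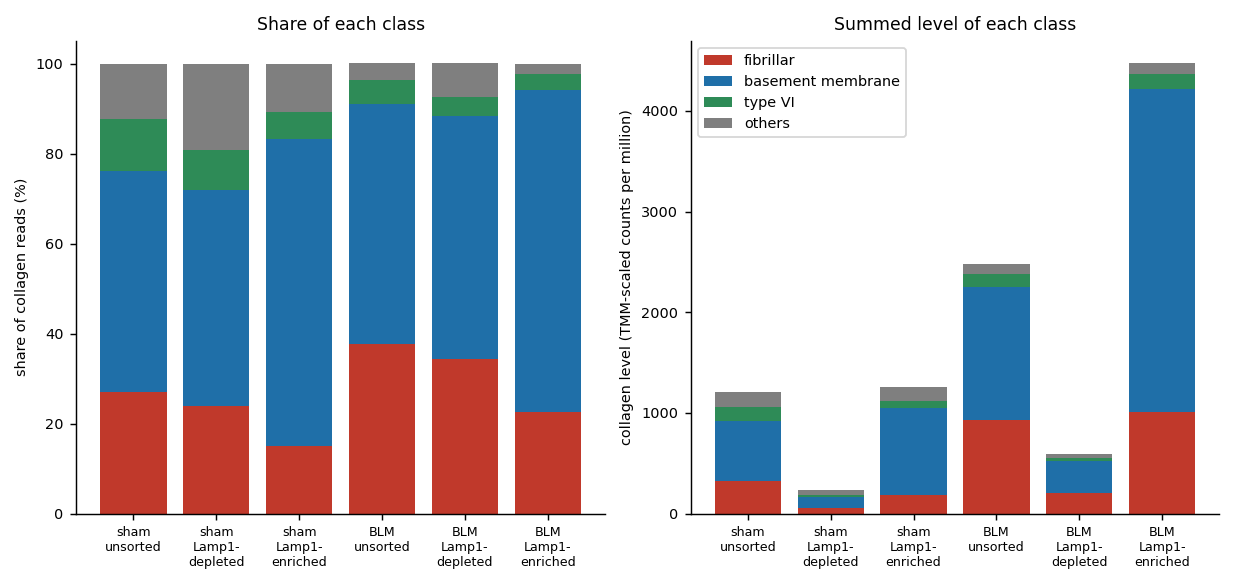
Stacked bars of the 4 collagen classes in each library, as the share of all collagen reads (left, %) and as the summed TMM-scaled CPM (right). The summed collagen level is 4474 in BLM Lamp1-enriched cells and 235 in sham Lamp1-depleted cells, and the fibrillar share (red) is higher in each BLM library than in the sham library of the same fraction.

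The first comparison asks how collagen chains differ between BLM-treated and sham-treated lungs. In unsorted cells Col1a1 was 4.49-fold higher in the BLM library, Col15a1 4.15-fold and Col24a1 7.92-fold higher, and these 3 of 42 chains tested passed a 4-fold difference (log2 ratio of at least 2, and 10 or more reads in whichever library was higher). None was lower by that much. With scaling by total counts 1 chain was higher, and Col1a1 (1.90) and Col15a1 (1.79) no longer passed. Over all genes 4.96% were higher and 5.00% lower by the same rule. The median log2 ratio was 0.92 for fibrillar, 0.45 for basement membrane, -0.11 for type VI and -0.49 for the other chains, against -0.07 for all genes tested. With 1 library per condition these are differences between libraries, with no replicate check and no p-value.

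In Lamp1-enriched cells 7 of 39 chains tested were at least 4-fold higher in the BLM library and none lower, against 3.59% and 2.09% of all genes. The 7 were Col1a1, Col1a2, Col3a1, Col5a3 and Col11a1 of the fibrillar class, Col15a1 and Col28a1. All 8 fibrillar chains tested had ratios above 0, with a median of 2.30, while the all-gene median was -0.00. In Lamp1-depleted cells 7 of 39 chains were higher by 4-fold and 1, Col9a2, was lower, against 5.36% and 7.65% of all genes. The balance turned with scaling, to 3 higher and 5 lower with total counts, and was 11 higher and 1 lower with DESeq2 size factors. Col1a1, Col11a2 and Col9a3 were among the 7. The other 4 (Col2a1, Col6a4, Col24a1 and Col25a1) rest on 6 or fewer reads in the sham library. Col9a2 went from 10 reads to 0, which allows only the statement that it was at least 1.54-fold lower. Whether the fractions of a treatment came from the same pooled lungs is not stated, so the 3 fractions do not stand as 3 repeats.

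**Figure D3:**
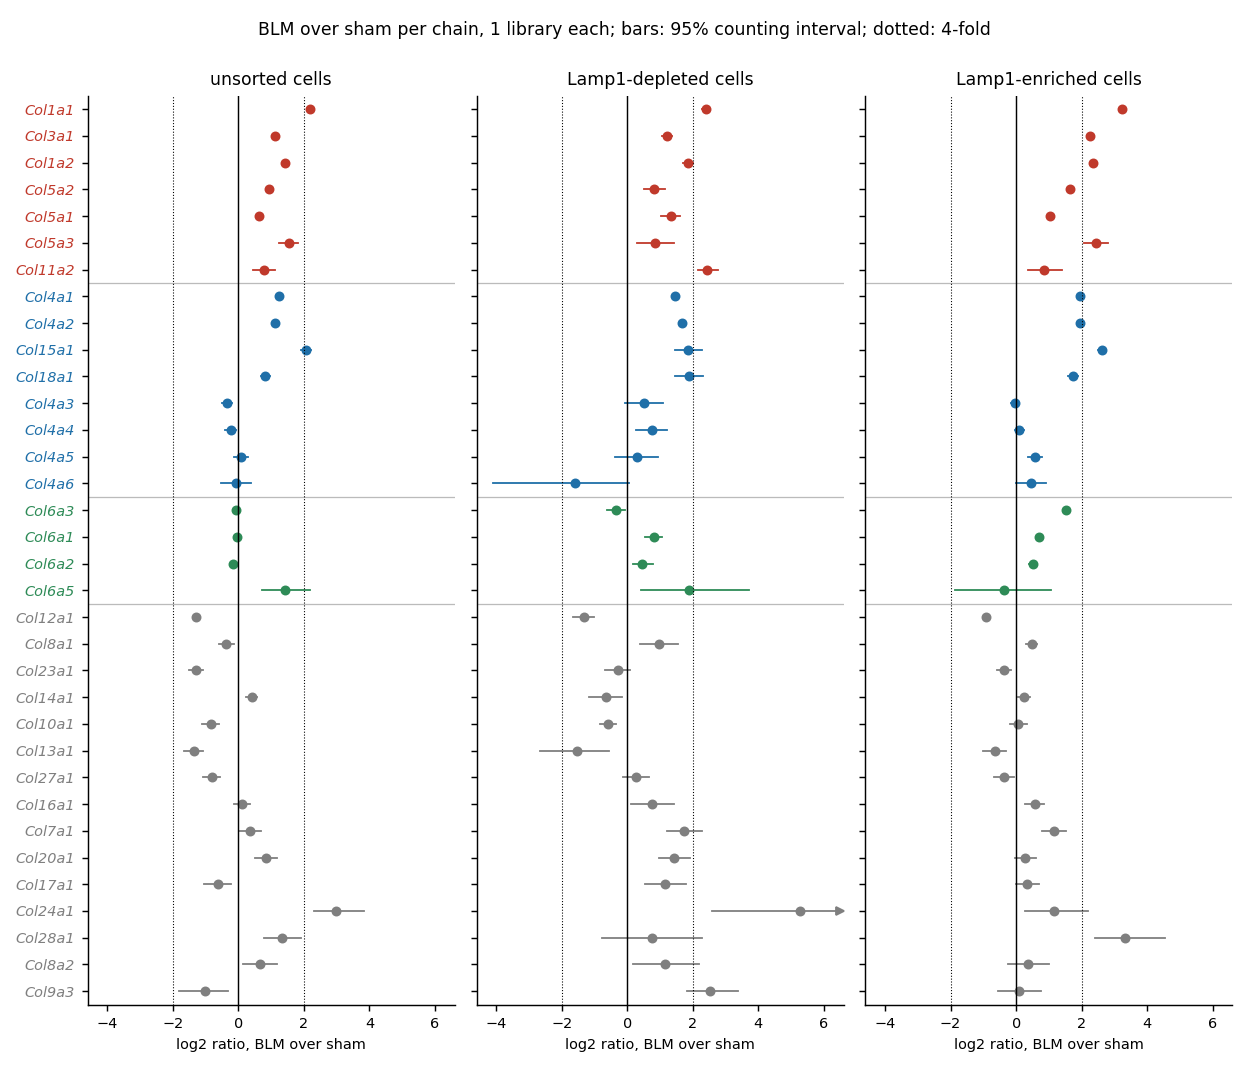
Log2 ratio of the BLM library over the sham library for 34 collagen chains in unsorted, Lamp1-depleted and Lamp1-enriched cells, with 95% counting intervals (Clopper-Pearson, counting error only) and dotted lines at 4-fold. Red fibrillar chains lie above 0 in all 3 panels, whereas Col12a1, Col13a1 and Col23a1 lie below 0 in all 3.

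Markers of other cell types moved between the same libraries. A list of 12 fibroblast markers without collagens summed to 597, 92.3 and 309 CPM in sham cells that were unsorted, depleted and enriched for Lamp1 and to 142, 54.1 and 141 in the BLM libraries, and 11 of 12 were below 0 in the unsorted comparison. The 8 activated fibroblast markers summed to 246, 217 and 223 in sham and 457, 207 and 258 in BLM libraries, with Cthrc1 at 0 in BLM Lamp1-depleted cells. Runx1 alone held 3298 of 11951 reads of this list in sham and 11730 of 18015 in BLM unsorted cells, and without it the other 7 summed to 178, 24.7 and 196 in sham and 159, 38.5 and 207 in BLM libraries. In unsorted cells the log2 ratios of BLM over sham of these 8 ran from -1.85 (Postn) to 8.13, also the maximum over all genes tested. Of the 8 markers, 5 were above 0 and 3 below. By the 4-fold rule 3 were higher and none lower, against 4.96% and 5.00% of all genes. In Lamp1-enriched cells 7 of the 8 were above 0 and 1 below, with ratios from -1.52 to 7.58. Endothelial markers (14 genes) summed to 12154, 2465 and 20463 in sham and 5986, 1234 and 18370 in BLM libraries, with none at 0. Pericyte and smooth muscle markers (12 genes) summed to 351, 51.0 and 448 in sham and 237, 46.7 and 452 in BLM libraries, with Cnn1 at 0 in BLM Lamp1-depleted cells. Macrophage markers summed to values from 269 to 632 in sham and from 431 to 3650 in BLM libraries, the highest in unsorted cells. T cell markers summed to 699 and 491 in the Lamp1-depleted libraries and to between 23.1 and 87.7 elsewhere. Alveolar type 2 markers ran from 150 to 1465, lymphatic endothelial markers from 28.7 to 215 (Ccl21a at 0 throughout), airway markers from 21.9 to 129, mesothelial markers from 10.6 to 68.2 and Schwann cell markers from 8.53 to 16.6. B cell markers summed to 3137 and 1619 in the Lamp1-depleted libraries and to between 75.9 and 252 elsewhere. The part of these cell types in the collagen differences was not tested, and in such bulk libraries fewer cells of a type and less RNA per cell cannot be told apart.

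The second comparison asks which collagen chains go with surface Lamp1. Most chains that could be measured were higher in Lamp1-enriched than in Lamp1-depleted cells, in both treatments, and all 8 basement membrane chains were among them. A model that blocked on treatment and took the 4 sorted libraries (edgeR quasi-likelihood test, Benjamini-Hochberg adjusted p under 0.05 over 20593 genes) called 21 of 37 chains higher in Lamp1-enriched cells and 2 lower, where 21.5% and 19.2% of all genes were called. The 21 were the 8 basement membrane chains, 5 of 7 fibrillar chains (Col1a1, Col1a2, Col3a1, Col5a1 and Col5a2), Col6a1, Col6a2 and Col6a3, and Col8a1, Col12a1, Col13a1, Col14a1 and Col16a1. The 2 lower chains were Col10a1 and Col11a2. Median log2 differences were 2.74 for basement membrane, 1.95 for fibrillar, 1.91 for type VI and 0.73 for other chains. The model left 1 residual degree of freedom, which holds how the sorting effect differs between treatments and not the spread between replicates. It took the spread wholly from all genes, with no weight on a gene's own spread (infinite prior degrees of freedom). Its p-values and standard errors (SE) thus describe these 4 libraries and are not errors between replicates. Each SE was derived from the F statistic of the test, as the absolute log2 difference divided by the square root of F. Without the treatment block 13 chains were higher and none lower. Col1a1, Col1a2, Col3a1, Col4a6, Col13a1, Col15a1, Col16a1, Col18a1, Col10a1 and Col11a2 no longer passed.

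By the 4-fold rule 15 of 38 chains tested were higher in Lamp1-enriched cells of sham-treated lungs and none was lower, against 15.6% and 12.6% of all genes. In BLM-treated lungs 21 of 40 were higher and 2, Col11a2 and Col2a1, lower, against 19.2% and 12.0% of all genes. The number higher in BLM lungs became 20 when Col9a2, at 0 reads in the Lamp1-depleted library, was set to its bound. The median over the chains tested was 1.62 for sham lungs and 2.19 for BLM lungs (2.07 with Col9a2 at its bound), and over all genes -0.01 and 0.29. The BLM values rest on the library with 38.4% of its reads on Gm26917. The sham values do not.

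**Figure D4:**
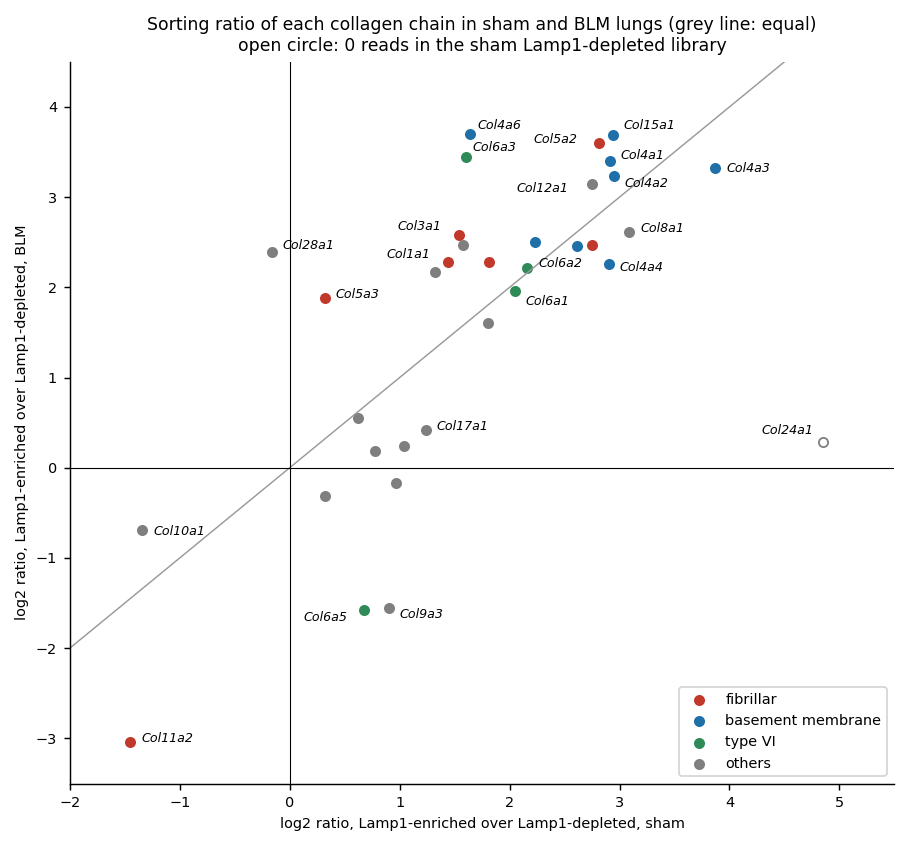
Log2 ratio of Lamp1-enriched over Lamp1-depleted cells in sham lungs (horizontal) and BLM lungs (vertical) for 34 collagen chains, coloured by class, with a grey line where both are equal. Basement membrane chains (blue) lie at 1.64 or above on both axes, and Col11a2 lies at -1.45 and -3.04. The open circle is Col24a1, with 0 reads in the sham Lamp1-depleted library.

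Unsorted cells were not simply intermediate between the sorted fractions. In sham lungs the unsorted library had the highest level of the 3 for 30 of 41 chains tested, against 25.7% of all genes. These were all 6 type VI chains, 8 of 9 fibrillar chains, 3 of 8 basement membrane chains and 13 of 18 others. In BLM lungs the unsorted library was highest for 14 of 41 chains, against 26.4% of all genes, and among these were 1 of 9 fibrillar chains (Col5a3), 3 type VI chains and none of the basement membrane chains. The fibroblast markers had the same order as the fibrillar chains in sham lungs (597 unsorted against 92.3 and 309), and in BLM lungs stood at 142 unsorted against 54.1 and 141. Their part in these orders was not tested.

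The fibrillar class was led by types I and III, the collagens of scar fibrils. Col1a1 (ENSMUSG00000001506, chromosome 11) had 4487, 790 and 2161 reads in sham cells that were unsorted, depleted and enriched for Lamp1 and 16387, 1925 and 24208 in the BLM libraries. At 92.4, 17.3 and 47.0 CPM in sham and 415, 91.1 and 444 in BLM libraries, its 2 highest libraries were BLM ones, and BLM Lamp1-depleted cells were level with sham unsorted cells. The log2 ratios of BLM over sham were 2.17 (2.12 to 2.22), 2.39 (2.27 to 2.52) and 3.24 (3.18 to 3.31), with 95% counting intervals in parentheses here and below. Col1a1 was thus past 4-fold in all 3 fractions, and no other member was with this scaling. With total counts Col1a1 had ratios of 1.90, 1.67 and 3.25, past 4-fold in Lamp1-enriched cells only. With DESeq2 size factors Col15a1 had 2.07, 2.00 and 2.60. Col1a2, which supplies the other chain of the type I trimer, had 3408, 505 and 1788 reads in sham and 7336, 849 and 10655 in BLM libraries. Its ratios were 1.41 (1.35 to 1.46), 1.86 (1.70 to 2.02) and 2.33 (2.26 to 2.40), each below that of Col1a1 in the same fraction. Col3a1, the type III chain, had 4748, 726 and 2131 reads in sham and 8431, 783 and 12101 in BLM libraries, with ratios of 1.13 (1.08 to 1.18), 1.22 (1.07 to 1.37) and 2.26 (2.19 to 2.33). For all 3 genes the ratio was largest in Lamp1-enriched cells.

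In Lamp1-enriched over Lamp1-depleted cells Col1a1 had log2 ratios of 1.44 in sham and 2.28 in BLM lungs, Col1a2 of 1.81 and 2.28, and Col3a1 of 1.54 and 2.58. Over both treatments Col1a1 differed by 1.77 ± 0.37 (SE, adjusted p = 1.05e-05, edgeR quasi-likelihood), Col1a2 by 1.95 ± 0.35 (adjusted p = 2.22e-07) and Col3a1 by 1.97 ± 0.35 (adjusted p = 2.61e-07). The call of Col1a1 ended with scaling by total counts. In sham lungs the unsorted library stood above both fractions for each of them. In BLM lungs unsorted and Lamp1-enriched cells lay close together, with 415 and 444 CPM for Col1a1.

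Type V collagen nucleates type I fibrils. Its chain Col5a1 had 1424, 178 and 1211 reads in sham and 1803, 206 and 2948 in BLM libraries, and BLM over sham ratios of 0.64 (0.54 to 0.74), 1.32 (1.02 to 1.62) and 1.04 (0.94 to 1.14). Col5a2 had 1458, 177 and 1252 reads in sham and 2248, 146 and 4583 in BLM libraries, with ratios of 0.92 (0.83 to 1.02), 0.83 (0.51 to 1.16) and 1.63 (1.54 to 1.72). Both were higher in every BLM library after scaling, and Col5a2 was the fibrillar chain with the largest difference by sorting, 3.11 ± 0.38 (SE, adjusted p = 5.21e-15, edgeR quasi-likelihood). Col5a3 was the rarest type V chain, with 151, 58 and 73 reads in sham and 355, 49 and 467 in BLM libraries. Its treatment ratio reached 2.43 (2.07 to 2.81) in Lamp1-enriched cells, and its sorting difference of 1.02 ± 0.54 did not pass (adjusted p = 0.118).

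The start regions of Col3a1 and Col5a1 are shown as a pair because both chains end up in the same fibrils while their treatment ratios in Lamp1-enriched cells were 2.26 and 1.04. The 250 bases before each start were taken from RefSeq on GRCm38.p6, where 35 of the 44 members had an entry, and are given on the plus strand, which both genes use. Col3a1 spans chr1:45311288-45311537 and Col5a1 spans chr2:27886175-27886424. Capitals mark matches on either strand to the motif CCAAT or the motif GGGCGG or the motif TATAAA, which do not overlap each other.
Col3a1: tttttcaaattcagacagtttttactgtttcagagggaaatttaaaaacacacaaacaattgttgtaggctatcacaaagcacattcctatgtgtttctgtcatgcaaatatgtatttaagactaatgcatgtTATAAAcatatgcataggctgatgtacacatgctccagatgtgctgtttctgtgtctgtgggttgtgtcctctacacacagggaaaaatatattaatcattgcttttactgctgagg
Col5a1: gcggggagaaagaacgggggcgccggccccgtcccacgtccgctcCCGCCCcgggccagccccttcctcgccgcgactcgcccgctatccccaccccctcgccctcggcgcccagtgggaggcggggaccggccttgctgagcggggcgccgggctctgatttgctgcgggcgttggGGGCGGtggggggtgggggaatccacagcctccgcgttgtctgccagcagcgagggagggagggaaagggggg
The Col3a1 window is rich in A and T and held 1 TATAAA, ending 111 bases before the start, a motif found in 12.4% of all 32851 promoters of this length. The Col5a1 window is rich in G and C and held GGGCGG at 2 places, once on each strand, and that motif occurs in 32.7% of all promoters. CCAAT, present in 33.8% of all promoters, was in neither window. Among the 38 member promoters 22 held the GGGCGG motif, 13 the CCAAT motif and 5 the TATAAA motif. A match is a description of letters and not evidence that a factor binds.

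Type XI and type II chains, best known from cartilage, were rare and behaved differently. Col11a2 had 125, 128 and 47 reads in sham and 173, 324 and 101 in BLM libraries. It was thus highest in BLM Lamp1-depleted cells, at 15.3 CPM against 1.02 to 4.39 elsewhere, and lower in Lamp1-enriched than in Lamp1-depleted cells, with a log2 difference of -2.38 ± 0.50 (SE, adjusted p = 1.37e-05, edgeR quasi-likelihood). The nearby lymphocyte gene H2-Oa had 205, 2279 and 164 reads in sham and 168, 709 and 73 in BLM libraries. The neighbour Rxrb had 1054, 1268 and 1168 and 837, 891 and 1162 reads, and Brd2 had 9426, 10607 and 8357 and 8025, 6333 and 11781. These neighbours were chosen after their values were seen. Cartilage markers were low, with 7 measured genes summing to 2.78, 0.790 and 1.72 CPM in sham and 7.38, 1.99 and 4.92 in BLM libraries. Their sum was thus lower in Lamp1-depleted than in Lamp1-enriched cells of each treatment, the other way from Col11a2. Acan and Matn3 were at 0 in sham Lamp1-enriched cells, and Matn1 was at 0 in 3 libraries. In unsorted cells all 4 that could be tested were higher in the BLM library, among them Sox9 (29 and 96 reads, 2.01) and Comp (20 and 72 reads, 2.12), and their part in the Col11a2 values was not tested. Col11a1 had 20, 0 and 1 reads in sham and 14, 6 and 22 in BLM libraries, and Col2a1 14, 2 and 2 and 11, 16 and 9. From 1 to 22 reads, Col11a1 differed between Lamp1-enriched libraries by a log2 ratio of 3.71, with an interval from 1.59 to 9.58.

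Among basement membrane collagens Col4a1, Col4a2, Col15a1 and Col18a1 had BLM over sham ratios above 0 in all 3 fractions, and Col4a3 to Col4a6 had smaller ratios than these in each. Col4a1 had 16253, 3107 and 23613 reads in sham and 31367, 3972 and 107882 in BLM libraries, which is 335, 68.2 and 513 CPM against 795, 188 and 1979. Col4a2, its partner in the common trimer, had 9413, 1627 and 12689 reads in sham and 16581, 2382 and 57678 in BLM libraries. BLM over sham log2 ratios were 1.25 (1.22 to 1.28), 1.46 (1.40 to 1.53) and 1.95 (1.93 to 1.97) for Col4a1 and 1.12 (1.08 to 1.15), 1.66 (1.57 to 1.75) and 1.94 (1.91 to 1.97) for Col4a2. Neither reached 4-fold. The 2 genes lie head to head on chromosome 8, and their annotated first exons overlap by 22 bases on opposite strands. By sorting Col4a1 differed by 3.06 ± 0.45 (SE, adjusted p = 1.47e-10, edgeR quasi-likelihood) and Col4a2 by 2.99 ± 0.42 (adjusted p = 1.21e-11).

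Col4a3, Col4a4, Col4a5 and Col4a6 make the specialised networks of alveolar, glomerular and other basement membranes. Col4a3 had 884, 65 and 966 reads in sham and 562, 43 and 1114 in BLM libraries. Its treatment ratios were -0.35 (-0.51 to -0.20), 0.51 (-0.08 to 1.09) and -0.04 (-0.16 to 0.09), so that in Lamp1-enriched cells the difference was within counting error. Col4a4 had 692, 89 and 675 reads in sham and 475, 69 and 857 in BLM libraries, with ratios of -0.24 (-0.41 to -0.07), 0.74 (0.27 to 1.21) and 0.10 (-0.05 to 0.25). Col4a5 had 378, 58 and 277 reads in sham and 324, 33 and 486 in BLM libraries, and Col4a6 had 96, 21 and 67 and 74, 3 and 109. In unsorted cells the intervals of Col4a5 and Col4a6 included 0, while in Lamp1-enriched cells the ratios were 0.57 (0.35 to 0.78) and 0.45 (0.01 to 0.92). Together these 4 chains made up 3.49%, 2.18% and 3.43% of collagen reads in sham libraries and 1.47%, 1.18% and 1.05% in BLM libraries. Alveolar type 1 cell markers (8 genes), an epithelium that rests on this membrane, summed to 532, 58.2 and 545 CPM in sham and 348, 98.8 and 331 in BLM libraries, and their part was not tested.

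All 4 of these chains were higher in Lamp1-enriched cells. Col4a3 differed most of all members in the model, by 3.51 ± 0.44 (SE, adjusted p = 5.80e-14, edgeR quasi-likelihood), followed by Col15a1 at 3.23. Col4a4 differed by 2.49 ± 0.44, Col4a5 by 2.28 ± 0.51 and Col4a6 by 2.44 ± 0.84, the last resting on 21 and 3 reads in the Lamp1-depleted libraries. Col4a3 and Col4a4 are also head to head, and the 71 bases between their first exons are shown because both genes start from them (chr1:82586850-82586920, GRCm38.p6, RefSeq, read on the minus strand as for Col4a4).
Col4a4 to Col4a3 spacer: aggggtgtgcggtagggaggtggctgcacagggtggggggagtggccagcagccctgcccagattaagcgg
None of the 3 motifs had a match in it, which is why it has no capitals. These motifs occur in 13.3%, 20.7% and 4.41% of the last 71 bases before all starts. Some exon bases of Col4a3 (5.6%) lie on the other strand of the noncoding gene C430014B12Rik, which had 29 reads or fewer in every library.

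Col15a1 and Col18a1 encode the chains of types XV and XVIII, which carry endostatin-like ends and link basement membranes to the stroma. Col15a1 had 452, 82 and 637 reads in sham and 1527, 138 and 4618 in BLM libraries. Its ratios of 2.05 (1.90 to 2.21), 1.85 (1.46 to 2.27) and 2.61 (2.49 to 2.74) were the highest of the class in unsorted and Lamp1-enriched cells, and it reached 84.7 CPM in BLM Lamp1-enriched cells from 1.80 in sham Lamp1-depleted cells. Col18a1 had 747, 79 and 488 reads in sham and 1074, 135 and 1916 in BLM libraries, with ratios of 0.82 (0.69 to 0.96), 1.87 (1.47 to 2.30) and 1.73 (1.58 to 1.88). Sorting separated Col15a1 by 3.23 ± 0.39 (SE, adjusted p = 1.82e-15) and Col18a1 by 2.44 ± 0.40 (adjusted p = 1.65e-08) in the edgeR quasi-likelihood test. In sham lungs Col18a1 was highest in unsorted cells (15.4 CPM against 10.6 in Lamp1-enriched cells), whereas Col15a1 was highest in Lamp1-enriched cells.

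The 3 common type VI chains had log2 ratios between BLM and sham close to 0 in unsorted cells. Col6a1 had 1991, 266 and 1111 reads in sham and 1564, 215 and 2158 in BLM libraries, Col6a2 had 1627, 233 and 1056 and 1181, 149 and 1778, and Col6a3, the longest chain of the common trimer, had 3004, 414 and 1267 and 2336, 152 and 4295. BLM over sham ratios in unsorted cells were -0.05 (-0.15 to 0.05), -0.16 (-0.27 to -0.05) and -0.06 (-0.14 to 0.02). In Lamp1-enriched cells they were 0.71 (0.61 to 0.82), 0.51 (0.40 to 0.62) and 1.52 (1.43 to 1.61), so Col6a3 stood apart from the other 2 chains there. In Lamp1-depleted cells Col6a3 was lower in the BLM library, at -0.34 (-0.61 to -0.06), and Col6a1 higher, at 0.80 (0.54 to 1.07). Both ratios rest on the library rich in Gm26917, where scaling by total counts moved the all-gene median by -0.72. The 3 chains were higher in Lamp1-enriched cells by 1.91 ± 0.37, 2.09 ± 0.38 and 2.42 ± 0.37 (SE, adjusted p = 1.68e-06, 3.41e-07 and 1.33e-09, edgeR quasi-likelihood). Each was higher in sham unsorted cells than in either sham fraction, with 41.0, 5.83 and 24.1 CPM for Col6a1. The alternative chains were rare. Col6a5 had 25, 6 and 10 reads in sham and 55, 11 and 9 in BLM libraries, and Col6a4 and Col6a6 stayed below 50.

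Fibril-associated chains were led by Col12a1, which binds the surface of type I fibrils and was the clearest chain with lower values in BLM libraries. It had 3474, 553 and 3745 reads in sham and 1146, 102 and 2323 in BLM libraries. Its log2 ratios were -1.30 (-1.40 to -1.20), -1.33 (-1.65 to -1.02) and -0.93 (-1.01 to -0.86), below 0 in all 3 fractions although none reached 4-fold. By sorting it was higher in Lamp1-enriched cells by 2.84 ± 0.37 (SE, adjusted p = 3.20e-13, edgeR quasi-likelihood). Col14a1, a related chain, had 518, 149 and 451 reads in sham and 554, 44 and 631 in BLM libraries, with ratios of 0.40, -0.65 and 0.24. Col16a1 had 286, 47 and 167 and 249, 37 and 291 reads. Both passed the sorting test, Col14a1 with 1.92 ± 0.46 (adjusted p = 0.000148) and Col16a1 with 1.61 ± 0.55 (adjusted p = 0.0110). The call of Col16a1 ended with scaling by total counts. Col20a1 had 136, 67 and 133 reads in sham and 198, 84 and 192 in BLM libraries, and its sorting difference of 0.30 ± 0.54 did not pass. Col9a3, a chain of the cartilage-type collagen IX, had 58, 20 and 38 reads in sham and 23, 55 and 48 in BLM libraries, which is a ratio of -1.02 in unsorted and 2.53 in Lamp1-depleted cells.

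Among network-forming and anchoring chains Col8a1, a short-chain collagen of vessel walls, had 424, 54 and 468 reads in sham and 266, 49 and 774 in BLM libraries. It was higher in Lamp1-enriched cells by 2.76 ± 0.47 (SE, adjusted p = 4.44e-08, edgeR quasi-likelihood), while its partner Col8a2, with 58, 18 and 38 and 74, 19 and 58 reads, did not pass (adjusted p = 0.64). Col7a1, the chain of anchoring fibrils, had 149, 51 and 89 reads in sham and 154, 79 and 233 in BLM libraries and did not pass the sorting test either (adjusted p = 0.610). Its BLM over sham ratio was 1.14 (0.79 to 1.51) in Lamp1-enriched cells. Col10a1, known from hypertrophic cartilage, had 398, 594 and 237 reads in sham and 179, 184 and 294 in BLM libraries. It was lower in Lamp1-enriched cells, with a log2 difference of -1.11 ± 0.42 (adjusted p = 0.0240), a call that ended with scaling by total counts, with every gene of at least 1 read kept, and in DESeq2's Wald test. The gene lies inside Nt5dc1 on the other strand, which had 1489, 2587 and 1594 reads in sham and 1156, 688 and 1543 in BLM libraries. Whether counting used strand is not given in the sources used here, so reads of the pair cannot be told apart where they overlap. The exons of the 2 genes share 18 bases, 0.6% of the Col10a1 exons. The ratio of Col10a1 to Nt5dc1 reads ran from 0.149 to 0.267 over the libraries.

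Of the transmembrane chains with at least 50 reads none passed 4-fold between treatments. Col23a1 had 709, 225 and 350 reads in sham and 234, 85 and 321 in BLM libraries, with a ratio of -1.30 (-1.52 to -1.08) in unsorted cells and -0.37 (-0.59 to -0.15) in Lamp1-enriched cells. Col13a1 had 408, 63 and 159 reads in sham and 129, 10 and 119 in BLM libraries, and ratios of -1.36 (-1.66 to -1.07), -1.52 (-2.67 to -0.57) and -0.66 (-1.02 to -0.31). Both were thus lower in BLM unsorted cells by more than the counting error. Col17a1, the hemidesmosomal chain of epithelia, had 150, 45 and 108 reads in sham and 79, 47 and 162 in BLM libraries. Col13a1 passed the sorting test at 1.62 ± 0.64 (SE, adjusted p = 0.0310, edgeR quasi-likelihood), but not with scaling by total counts or in DESeq2's Wald test, and Col17a1 (adjusted p = 0.340) and Col23a1 (adjusted p = 0.406) did not.

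The late-numbered chains all stand outside the fibrillar class used here. Col24a1 had 18, 0 and 14 reads in sham and 119, 12 and 38 in BLM libraries. In unsorted cells its ratio was 2.99 (2.30 to 3.83), the highest of all members, and in Lamp1-depleted cells it was at least 8.63-fold higher in the BLM library, with 0 reads set to 3. In Lamp1-enriched cells the ratio was 1.17 (0.28 to 2.19). Col28a1, a von Willebrand domain collagen, had 40, 10 and 9 reads in sham and 82, 8 and 111 in BLM libraries, and its ratio of 3.32 (2.40 to 4.55) in Lamp1-enriched cells was the largest there among chains with at least 50 reads. Col27a1 had 384, 147 and 185 reads in sham and 177, 82 and 170 in BLM libraries, with a ratio of -0.82 (-1.08 to -0.56) in unsorted cells. None of these 3 passed the sorting test.

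The 10 chains below 50 reads in every library were Col6a6, with at most 39 reads, Col9a2 with 33, Col11a1 with 22, Col6a4 with 21, Col2a1 with 16, Col25a1 with 14, Col26a1 with 11, Col22a1 with 10, Col19a1 with 6 and Col9a1 with 4. Col9a1 and Col19a1 did not reach 10 reads anywhere and entered no comparison. At these depths 3 reads corresponded to between 0.0550 CPM in BLM Lamp1-enriched cells and 0.142 in BLM Lamp1-depleted cells, and the intervals of the rarest chains were wide, as for Col6a4 in Lamp1-depleted cells (log2 ratio 4.77, 2.87 to 10.87).

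Ratios between chains within a library do not depend on how libraries are scaled. Per exon length the ratio of Col1a1 to Col1a2 was 2.49 (2.38 to 2.61), 2.96 (2.65 to 3.32) and 2.29 (2.15 to 2.44) in sham cells that were unsorted, depleted and enriched for Lamp1, and 4.23 (4.11 to 4.35), 4.29 (3.96 to 4.66) and 4.30 (4.20 to 4.40) in the BLM libraries. The 3 BLM values lay above the 3 sham values with no overlap of counting intervals. Col3a1 to Col1a1 was 0.707, 0.614 and 0.659 in sham and 0.344, 0.272 and 0.334 in BLM libraries, again without overlap. Col4a1 to Col4a2 stayed between 1.48 and 1.69 in all 6 libraries, in no order of treatment. Col6a1 to Col6a2 ran from 2.00 to 2.74. Col5a2 to Col5a1 was 0.906, 0.880 and 0.915 in sham and 1.10, 0.627 and 1.38 in BLM libraries, so that the fractions parted after BLM. Col15a1 to Col18a1 was lowest in sham unsorted cells, at 0.669, and highest in BLM Lamp1-enriched cells, at 2.67. Absolute ratios carry the uncertainty of exon length, which is the same in every library. No test was made, since the libraries of a treatment are not shown to be separate animals.

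**Figure D5:**
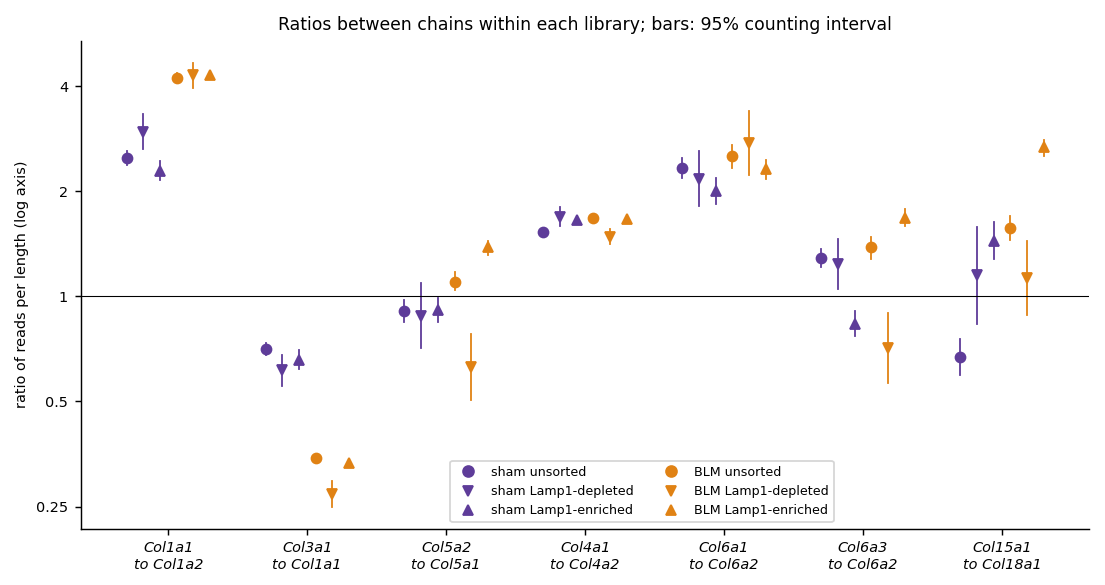
Ratio of reads per exon length between pairs of collagen chains in each of the 6 libraries (log axis, bars show 95% counting intervals). Col1a1 to Col1a2 lies at 2.29 to 2.96 in sham and 4.23 to 4.30 in BLM libraries, and Col4a1 to Col4a2 lies between 1.48 and 1.69 in all.

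The genes that modify, process and bind collagen were counted from lists of their known roles, beside 4.96% of all genes higher and 5.00% lower by 4-fold in unsorted cells and 3.59% and 2.09% in Lamp1-enriched cells. Of 21 genes for collagen biosynthesis and secretion, 1 was at least 4-fold higher in BLM unsorted cells (P4ha3, a prolyl hydroxylase subunit, with 16 and 66 reads in sham and BLM), and the median was 0.10. In Lamp1-enriched cells P4ha3 had 5 and 108 reads and the median was 0.34. Of 12 tested genes for procollagen processing and crosslinking none passed 4-fold in unsorted cells, and in Lamp1-enriched cells Adamts2, a procollagen N-proteinase (251 and 1351 reads, log2 ratio 2.18), and Lox, a lysyl oxidase (400 and 1928 reads, 2.02), were higher. Fn1, encoding fibronectin, had 10986 and 138406 reads in unsorted cells, a ratio of 3.95, and Tgfbi 1077 and 12825, a ratio of 3.87. Together with Comp (2.12) they were 3 of 16 fibril-associated genes higher there, and Ogn, a small proteoglycan, was lower at -2.89. Among 17 partners of type IV collagen, Lama1, the laminin alpha 1 chain, was the 1 gene past 4-fold in unsorted cells (629 and 5897 reads, 3.53), and its ratio in Lamp1-enriched cells was 3.99 with 1226 and 23037 reads. Of 12 collagen receptors 9 had ratios below 0 in unsorted cells, 8 of them with intervals below 0, and Gp6, a platelet receptor, was the 1 past 4-fold, at -2.46. The 8 platelet markers summed to 333 and 59.5 CPM in these libraries.

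By sorting, 16 of 17 partners of type IV collagen were higher in Lamp1-enriched cells and 1, the laminin chain gene Lamb3, was lower (edgeR quasi-likelihood, adjusted p under 0.05), where 21.5% and 19.2% of all genes were called. The other lists had 13 and none of 21 biosynthesis genes, 9 and 1 of 12 processing genes, 10 and 1 of 16 fibril-associated genes and 7 and 1 of 12 receptors. Pxdn, the peroxidase that crosslinks type IV collagen, had log2 ratios of 2.92 in sham and 3.67 in BLM lungs, and Lamb2, a laminin beta chain, of 2.90 and 3.45. Serpinh1, the collagen chaperone of the endoplasmic reticulum, had ratios of 3.15 and 3.77. Of the marker lists, all 14 endothelial markers were higher in Lamp1-enriched cells with a median of 3.23. So were all 8 platelet and megakaryocyte markers (median 4.14), all 8 alveolar type 1 markers (2.43) and 10 of 11 pericyte and smooth muscle markers (2.76). Of 8 alveolar type 2 markers 6 were higher (1.82). Of 8 activated fibroblast markers 6 were higher and 1 lower (2.48), and of 12 fibroblast markers 7 and 1 (1.53). Of 11 macrophage markers 1 was higher and 3 were lower. All 8 T cell and 6 B cell markers were lower, with medians of -4.43 and -4.35. The part of these cell types in the collagen differences was not tested.

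Genes with the most similar profile over the 6 libraries (Pearson r of log2 CPM plus 1, over 13380 genes with at least 200 reads in a library) are given as a description only. For Col1a1 they were Anln, Sept5 and Gm4117 (r from 0.986 to 0.989), for Col4a1 Sema7a, Sema6b and 8430408G22Rik (0.996 to 0.998) and for Col17a1 Gpld1, Chrnb1 and Pcdhgc5 (0.971 to 0.990). The points share their libraries and scaling.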

How the data were processed

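PolyA RNA of 6 lung cell preparations was sequenced as paired reads. The deposited values are raw gene counts made by the authors, for whom the submitters' processing notes name Trimmomatic 0.36, STAR 2.5.2b, Subread 1.5.2 with featureCounts, DESeq2 and the build GRCm38. The annotation and the strand setting are not given in the sources used here. All columns of the table were used.

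Counts were scaled with TMM factors (edgeR 4.0.16, R 4.3.3). With 1 library per condition, log2 ratios used a prior count of 0.5 and 95% Clopper-Pearson counting intervals, which cover counting error only. A ratio was called at 4-fold or more given 10 or more reads in whichever library was higher, and 0 reads were set to a floor of 3 reads per library for bounds. Lamp1-enriched and Lamp1-depleted cells were tested over 4 libraries with edgeR's quasi-likelihood test, treatment as a block and Benjamini-Hochberg adjustment, which was tested on simulated data. Exon lengths came from GENCODE M21 (49056 of 49315 genes). Chains with at least 50 reads in a library were described singly, the rest by name and highest count. The chains and gene lists were chosen with earlier results of these data known. Alternatives were other scalings (DESeq2 1.42.0 size factors, total counts, without Gm26917), prior counts, read minimums, fold limits, gene filters, models without the block or with all 6 libraries, and DESeq2's Wald test. The genes most like Col6a1 are not reported here.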

Additional observations from a re-analysis of the deposited data

Results flagged for a closer look

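Col9a3, a chain of collagen IX, had opposite ratios of BLM over sham in 2 preparations. The log2 ratio was -1.02 in unsorted cells (58 reads in sham and 23 in BLM) and 2.53 in Lamp1-depleted cells (20 and 55 reads), a difference of -3.55. It was flagged because the single library pairs moved in opposite directions, and the difference was not tested, since each condition has 1 library. The second ratio rests on the library with 38.4% of its reads on Gm26917.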

How the results depend on the processing

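No paired analysis was possible because the labels carry no replicate numbers to pair by. The block in the sorting test is treatment, and with 1 library per condition no replicate could be left out. Of 102 alternative values of the main counts, 73 stayed within 1.5 times the reported count and 29 moved further. In unsorted cells the 3 chains higher in BLM became 1 with total-count scaling, 10 at a log2 limit of 1 and 0 at 3, and the 0 lower became 1 with a minimum of 1 read and 6 at a limit of 1. In Lamp1-depleted cells the 7 higher became 11 with DESeq2 size factors, 3 with total counts, 3 with a minimum of 50 reads, 19 at a limit of 1 and 3 at 3, and the 1 lower became 5 with total counts, 0 with 50 reads and 5 at a limit of 1. In Lamp1-enriched cells the 7 higher became 15 at a limit of 1 and 3 at 3. By sorting, the 15 higher in sham became 26 at 1 and 4 at 3, and the 0 lower became 2 at 1. In BLM the 21 higher became 9 at 3, and the 2 lower became 6 at 1 and 1 with total counts, a prior count of 2, 50 reads or a limit of 3. In the quasi-likelihood test the 21 higher became 13 without the treatment block, and the 2 lower became 0 without it and 1 with total counts, with all genes of at least 1 read, or in DESeq2's Wald test. Total-count scaling moved the all-gene median by -0.26 in unsorted and -0.72 in Lamp1-depleted cells between treatments, and by -0.17 in sham and 0.55 in BLM cells by sorting. DESeq2 size factors moved it by 0.15 (Lamp1-depleted) and -0.15 (BLM sorting), and leaving out Gm26917 by -0.13 (BLM sorting). The share of all called genes that were higher went from 49.8% to 36.0% (unsorted), 41.2% to 16.4% (Lamp1-depleted) and 61.6% to 75.4% (BLM sorting) with total counts. Relative to the all-gene median the chains' median was 0.08, 1.17, 0.51, 1.63 and 1.90 in the 5 comparisons, the first 0.09 with total counts. The cause of these shifts was not tested.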
